A study of Mus musculus with 9 samples.

Results

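Gene expression after pamidronate given together with geranylgeraniol (GGOH) was compared with the control in RAW 264.7 cells, an established mouse macrophage-like line able to turn into osteoclast-like cells under RANKL, a cytokine of osteoclast formation. The comparison rests on 6 of the 9 RNA libraries of the study, 3 labelled pamidronate + GGOH and 3 labelled as untreated controls, chosen by their names in the count table. The remaining 3 libraries, given pamidronate without GGOH, entered the same model and are shown beside the results. According to the culture notes, RANKL (20 ng/ml) was given to every sample 24 h into culture. After 48 h in all, the treated cells received 140 µM pamidronate, alone or with 5.25 µM GGOH, and were collected 24 h later. The control labels say that there was no treatment while the notes give RANKL for all samples, so the controls are read here as RANKL without pamidronate and without GGOH. The tag 25pct in the names of the pamidronate + GGOH libraries is not explained in the labels, and no sample analysed here received GGOH without pamidronate. The comparison therefore addresses how far cells given both agents differed from cells given neither, and an effect of GGOH on its own cannot be told apart from its effect in the presence of pamidronate.

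The mevalonate pathway turns acetyl-CoA into mevalonate, then into the isoprenoid lipids farnesyl and geranylgeranyl diphosphate, and from farnesyl diphosphate on to cholesterol. Pamidronate is a nitrogen-containing bisphosphonate that blocks farnesyl diphosphate synthase, the product of Fdps, and so limits both the supply of geranylgeranyl diphosphate for membrane anchoring of Rac, Rab and other small GTPases and the supply of sterols. GGOH is an alcohol that cells can phosphorylate to geranylgeranyl diphosphate, bypassing the block for geranylgeranylation but not for farnesylation or for sterols. When sterols are low, the SREBP transcription factors raise the genes of sterol synthesis and of lipoprotein uptake.

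The 6 libraries held 14356069 to 18957968 counts. Mitochondrially encoded genes took 5.41, 6.19 and 6.29% of the counts with pamidronate + GGOH and 10.8, 10.4 and 10.4% in the control, and the number of genes with at least 1 count was 28054, 27975 and 25202 against 22349, 20611 and 20558. The mean difference of 5904 genes was 2632 when at least 5 counts were required. Neither the share nor the number with at least 1 count overlapped between the groups (exact permutation test, two-sided, p = 0.1 for each, the smallest p that 3 against 3 samples can give). Pamidronate + GGOH replicate 3 stood apart from its group: its mean log2 distance to the control libraries was 0.962, against 1.22 and 1.18 for the other 2. Control replicate 1 had 0.0609% of its counts on replication-dependent histone genes, against 0.127 and 0.175% in the other controls. Results that changed when 1 of these libraries was left out are given with that value. The labels call the controls biological replicates and describe RNA extracted in triplicate. Separate cultures are not stated for the treated samples, so p-values cover only the spread among the libraries, which may be technical. Fewer cells of a kind and less RNA per cell cannot be told apart in such bulk samples.

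Of 15963 genes tested, 8359 (52.4%) differed between pamidronate + GGOH and the control at an adjusted p under 0.05 (edgeR, quasi-likelihood test, Benjamini-Hochberg). Of these, 4202 (26.3% of the genes tested) were higher and 4157 (26%) were lower. The libraries of the groups did not overlap for 9298 genes (58.2%). The balance between higher and lower calls depended on the scaling of the libraries. Upper-quartile factors, in place of the TMM factors used throughout, moved the median log2 fold change of all genes from 0.02 to 0.23 and gave 5834 higher and 2600 lower calls, so that 69.2% of the called genes were higher, against 50.3%. Over all genes tested, 36.5% were then higher and 16.3% lower. The counts of gene lists below are also given with these factors where they differ by more than 1.5 times, and each is to be read against these shares over all genes. The shares themselves differed strongly by expression level, as the next paragraph gives, and no list was matched for level. For comparison, pamidronate alone against the control gave 11042 calls (69.2% of the genes tested), 5784 higher (36.2%) and 5258 lower (32.9%). Pamidronate + GGOH against pamidronate alone gave 7784 calls (48.8%), 4022 higher (25.2%) and 3762 lower (23.6%). Each pair of these comparisons shares 1 group of libraries.

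Large changes were mostly increases of weakly expressed genes. Among the called genes, 2432 were at least 2-fold higher and 647 at least 2-fold lower. Of the 2432, 1690 had under 1 CPM (counts scaled to a common library size with the TMM factors) in the control, and 570 reached 5 CPM with pamidronate + GGOH, while 519 of the 647 had at least 5 CPM in the control. By mean level over the 9 libraries, 35.8% of the genes under 1 CPM were higher and 2.01% lower, whereas 17.1% of the genes at 100 CPM or more were higher and 49.0% lower. With upper-quartile factors the abundant genes were close to balanced, at 28.8% higher and 32.6% lower, as were those from 10 to 100 CPM, which went from 17.5% higher and 40.2% lower to 29.4% and 24.8%. The genes under 1 CPM kept their skew, at 43.4% and 1.39%. The filter on low counts keeps a gene that passes in as few as 3 libraries, the size of a group. Weakly expressed genes could thus be kept through the group where they were high, and how far this set their skew was not tested. Genes annotated as long intergenic noncoding RNA followed the first pattern, with 246 of 464 higher and 20 lower, and so did antisense transcripts, with 305 of 722 higher and 12 lower. Of the 12285 protein-coding genes, 2753 were higher and 4008 lower, a balance that turned with upper-quartile factors to 4029 higher and 2509 lower. The noncoding classes stayed on the higher side with those factors, at 293 and 15 for the intergenic and 375 and 9 for the antisense RNAs. The share of counts from the nuclear noncoding RNA Malat1 was 2.59 ± 0.22% with pamidronate + GGOH and 1.52 ± 0.16% in the control (SD, n = 3 each), and its part in the rise of the weakly expressed classes was not tested.

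**Figure D1:**
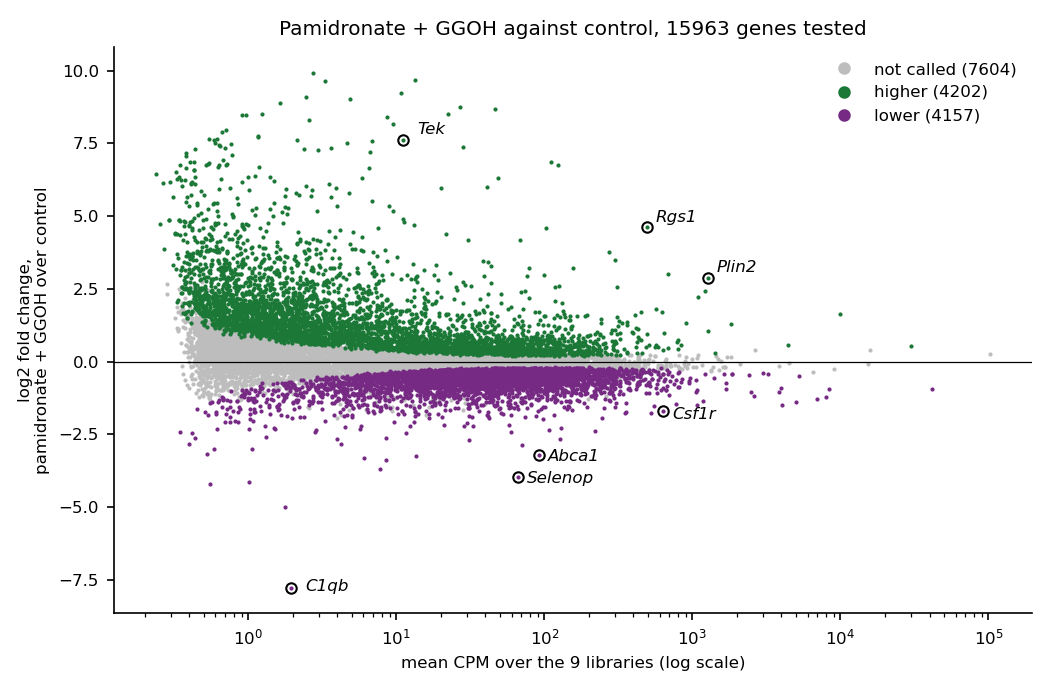
Log2 fold change of pamidronate + GGOH over control (vertical axis) against the mean CPM over the 9 libraries (horizontal log axis) for the 15963 genes tested, 1 point per gene. The 4202 genes called higher (green) reach furthest from 0 at low levels, and the 4157 called lower (purple) lie mostly at 10 CPM and above.

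Among genes with a level of at least 5 CPM and no overlap between the groups, 4 of the 12 largest decreases belonged to the macrophage identity list. C1qb, a chain of the complement component C1q, had 0.876, 5.49 and 10.9 CPM in the control and 0, 0 and 0.0526 CPM with pamidronate + GGOH. C1qc, another chain, had 1.11, 6.66 and 7.61 CPM and 0.114, 0.125 and 0.21 CPM. Control replicate 1 was the lowest control for both, yet lay above every treated library. Selenop encodes selenoprotein P, a secreted carrier of selenium (ENSMUSG00000064373, GRCm38 chromosome 15, 3268547 to 3280508). Its control values of 165, 234 and 157 CPM stood against 6.19, 11.2 and 17.7 CPM with both agents, and against 2.57, 2.53 and 1.55 CPM with pamidronate alone. All treated libraries lay far below the lowest control, with replicate 3 the highest of them, and the log2 change was -3.98 ± 0.37 (SE, adjusted p = 0.000137). Mrc1, the mannose receptor, had 8.76, 24.3 and 15.8 CPM in the control and 0.851, 1.62 and 2.37 CPM with pamidronate + GGOH, a log2 change of -3.32 ± 0.42 (SE, adjusted p = 0.000153). Maf, a transcription factor of mature macrophages, changed by -3.25 ± 0.35 (SE, adjusted p = 9.32e-05), and Clec4a1, a lectin receptor, by -3.37 ± 0.22 (SE, adjusted p = 1.51e-07). The others at this end were Cbr2, a carbonyl reductase, Abca1, a cholesterol exporter described below, Tmem176a, Hpgd, which degrades prostaglandins, Cd28 and Pdgfrb, with log2 fold changes of -3.69 to -2.67.

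The 12 genes furthest above the control were close to silent there, with at most 0.28 CPM in any control library. Tek, a receptor tyrosine kinase for angiopoietins, had 0.0584, 0.28 and 0.0618 CPM in the control, 30.3, 40.4 and 14.7 CPM with pamidronate + GGOH and 4.22, 5.06 and 5.45 CPM with pamidronate alone. It rose by 7.62 ± 0.58 (SE, adjusted p = 1.22e-05) on the log2 scale over the control and also lay above pamidronate alone, by 2.53 ± 0.35 (SE, adjusted p = 0.000336). Plcxd2 went from 0.0584, 0.056 and 0.0618 to 23.5, 30.3 and 13.2 CPM. With 3 counts over the control libraries its ratio was 373 (95% counting interval 127 to 1810.4). Skint7, with 1 control count, had 9.59, 20.4 and 12.2 CPM with both agents and 0.55, 0.316 and 0.619 CPM with pamidronate alone, and lay above pamidronate alone by 4.80 ± 0.36 (SE, adjusted p = 3.83e-07). Pappa2, a protease of IGF-binding proteins, and Ramp3, a partner of the calcitonin receptor family, had no count in the control and were at least 121-fold and at least 99.3-fold higher against a floor of 3 counts over the group. Sstr5, a somatostatin receptor, and Cckar, a cholecystokinin receptor, were also at 1 control count each. Sstr5 reached 26.6, 29.4 and 10.9 CPM, and Cckar 12, 8.91 and 2.21 CPM. For 11 of these 12 genes replicate 3 was the lowest pamidronate + GGOH library, Skint7 being the exception. Efcab6, Eqtn, Tigd4, Tekt4 and Sh3gl3 complete the set. Counting intervals cover counting error only.

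**Figure D2:**
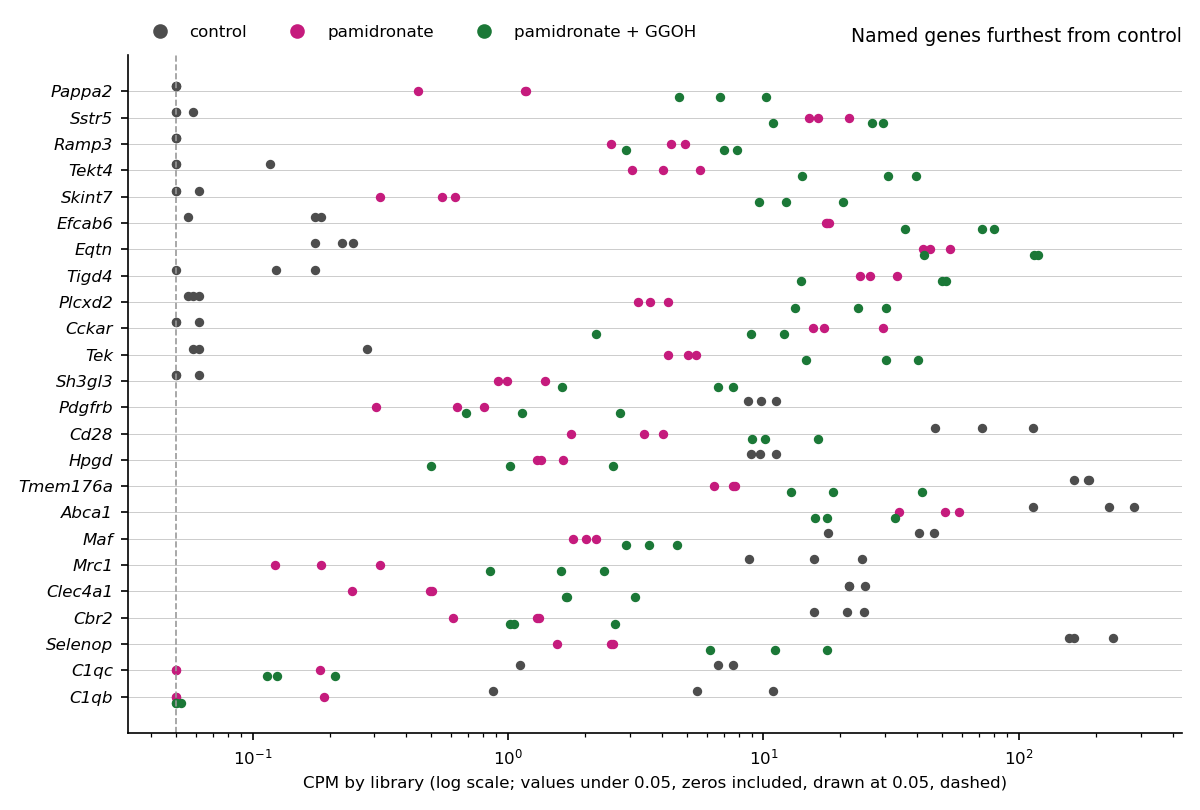
CPM in each library (horizontal log axis, 1 point per library) for the 12 highest and 12 lowest genes. Gray points are control, magenta pamidronate and green pamidronate + GGOH libraries. Gray and green points do not overlap for any of the 24 genes, and values under 0.05 are drawn at 0.05.

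The genes of sterol synthesis lay at or below the control when GGOH accompanied pamidronate. Among 20 enzymes leading to mevalonate and cholesterol, 0 rose (against 26.3% over all genes) and 14 fell (70%, against 26%). The median log2 fold change was -0.65 (10 fell and the median was -0.45 with upper-quartile factors). With pamidronate alone 13 of the same genes rose and 3 fell, with a median of 0.69. Insig1, which retains the SREBP machinery in the endoplasmic reticulum (ENSMUSG00000045294, GRCm38 chromosome 5, 28071363 to 28078662), had 30.4, 18.9 and 18.3 CPM in the control, 292, 364 and 382 CPM with pamidronate and 26.3, 17.9 and 14 CPM with pamidronate + GGOH. The last group overlapped the control, with a difference of -0.22 ± 0.28 (SE, adjusted p = 0.543). Sqle, the enzyme after squalene, also overlapped the control, at 43.1, 38.7 and 31.2 CPM against 46.8, 39.5 and 44.8 CPM.

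Other steps fell below the control. Hmgcs1, HMG-CoA synthase (ENSMUSG00000093930, GRCm38 chromosome 13, 119690462 to 119708086), had 44, 31.6 and 30.9 CPM in the control, 173, 209 and 204 CPM with pamidronate and 28.2, 24.3 and 21.9 CPM with pamidronate + GGOH. Its log2 fold change of -0.52 ± 0.14 (SE, adjusted p = 0.00833) against the control did not pass with upper-quartile factors (adjusted p = 0.0993). Fdps, the enzyme that pamidronate inhibits (ENSMUSG00000059743, GRCm38 chromosome 3, 89093588 to 89101959), had 14.3, 9.13 and 11.8 CPM in the control and 6.92, 6.42 and 4.52 CPM with both agents. No treated library reached the lowest control, and the change was -0.98 ± 0.18 (SE, adjusted p = 0.000546), against 0.75 ± 0.17 (SE, adjusted p = 0.00147) for pamidronate alone. Idi1, which makes the isoprenoid building block dimethylallyl diphosphate, changed by -1.17 ± 0.18 (SE, adjusted p = 0.000104), from 10.6 ± 1.14 to 4.71 ± 0.83 CPM (SD, n = 3 each). Acat2, a cytosolic thiolase at the entry of the pathway, and Mvd, which makes isopentenyl diphosphate, changed by -1.33 ± 0.14 (SE, adjusted p = 8.62e-06) and -0.96 ± 0.19 (SE, adjusted p = 0.00196).

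The promoter of Hmgcs1 is shown as the only one of the sterol list that held the motif searched below. Hmgcs1 rose with pamidronate alone and lay below the control with GGOH added, as did Fdps, which is not among the matches. Promoter windows are the 250 bases before the start given by RefSeq (GRCm38.p6), read 5′ to 3′ on the gene's strand. A sterol regulatory element, the SREBP binding motif, was searched as TCACNCCAC on both strands and is in capitals. It was present in 1.225% of 27025 genes with a window and in 1 of the 15 genes of the sterol list with a window. That gene was Hmgcs1, in the plus-strand window chr13:119690101-119690350.
Hmgcs1: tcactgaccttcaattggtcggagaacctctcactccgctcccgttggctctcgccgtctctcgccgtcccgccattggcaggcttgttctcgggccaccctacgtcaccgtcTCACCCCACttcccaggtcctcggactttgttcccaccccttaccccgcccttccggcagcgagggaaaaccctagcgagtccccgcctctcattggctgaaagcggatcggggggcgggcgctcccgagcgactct
The match begins 137 bases before the RefSeq start, which lies upstream of the gene start in the deposited annotation. A match is a description of letters and not of a bound site.

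**Figure D3:**
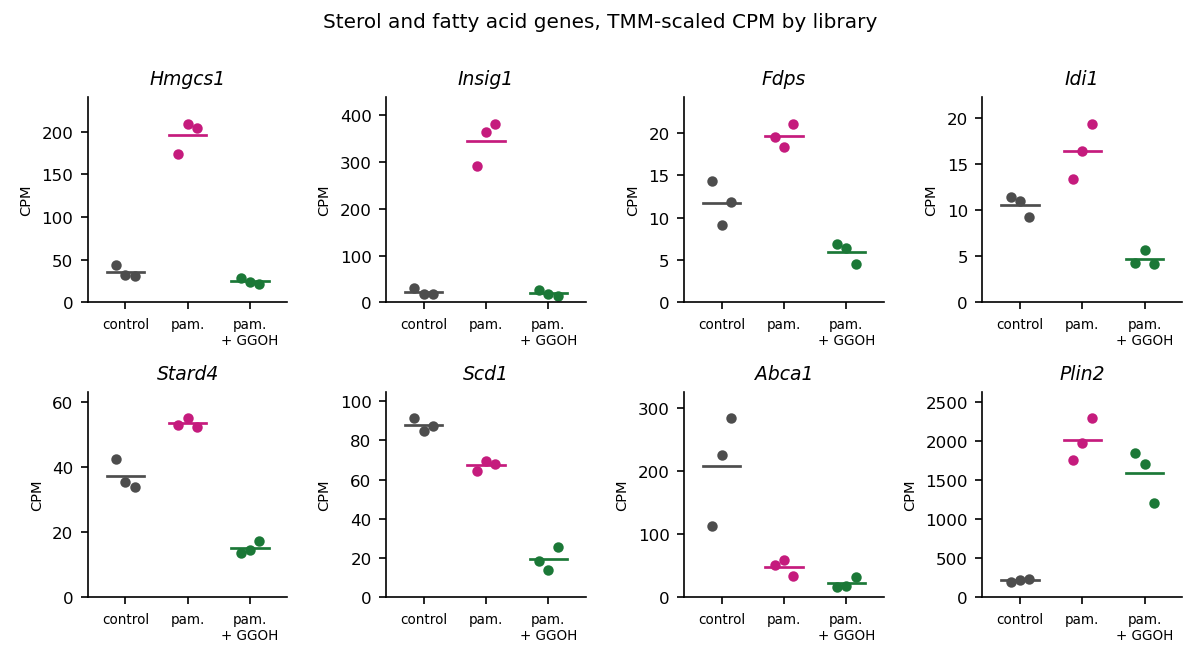
CPM in each library (vertical axis from 0, 1 point per library, horizontal line at the group mean) for 8 genes of sterol and fatty acid metabolism in control, pamidronate (pam.) and pamidronate + GGOH samples. Hmgcs1, Insig1 and Idi1 are highest with pamidronate alone, whereas Abca1 is low in both treated groups and Scd1 is lowest with pamidronate + GGOH.

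SREBP regulators and lipid uptake genes were called lower or not called. Of 14 genes, 0 rose (against 26.3% over all genes) and 7 fell (50%, against 26%). The median was -0.31 (1 and 5 with upper-quartile factors). Stard4, a carrier of cholesterol between membranes, changed by -1.30 ± 0.12 (SE, adjusted p = 1.91e-06), and Mylip, a ubiquitin ligase under LXR control, by -1.69 ± 0.25 (SE, adjusted p = 0.000344). Srebf1, which encodes the SREBP form that drives fatty acid genes, changed by -0.43 ± 0.09 (SE, adjusted p = 0.000883).

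Fatty acid synthesis was lower than in the control for most of its genes. All 14 genes of the list were called, 12 lower (85.7%, against 26% over all genes) and 2 higher (14.3%, against 26.3%). The median was -0.78 (9 and 2 with upper-quartile factors). The groups did not overlap for any of the 14, against 58.2% over all genes. Scd1, the stearoyl-CoA desaturase that makes monounsaturated fatty acids (ENSMUSG00000037071, GRCm38 chromosome 19, 44394451 to 44407709), had 91.1, 84.9 and 87.4 CPM in the control and 64.1, 69.5 and 67.9 CPM with pamidronate. With pamidronate + GGOH it had 18.7, 14 and 25.4 CPM. Its level was thus lowest with both agents, by -2.17 ± 0.16 (SE, adjusted p = 1.51e-06) against the control and -1.79 ± 0.16 (SE, adjusted p = 3.16e-06) against pamidronate alone. Scd2, its paralog, went from 509.9 ± 23.8 to 151 ± 53.5 CPM (SD, n = 3 each), and the desaturases Fads1 and Fads2 changed by -1.16 and -1.60 (adjusted p = 3.63e-06 and 1.51e-07). Fasn, fatty acid synthase, changed by -1.19 ± 0.11 (SE, adjusted p = 2.36e-06). Me1, which supplies NADPH, and Acacb, the mitochondrial acetyl-CoA carboxylase, rose by 1.02 and 0.79 (adjusted p = 0.00388 and 0.00944), and the call of Acacb was lost without pamidronate + GGOH replicate 2.

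In the list of LXR targets, named for the nuclear receptors that sense oxysterols, 2 of 10 genes rose (20%, against 26.3% over all genes). Lower were 4 (40%, against 26%), and the median was -0.29 (2 higher and 2 lower with upper-quartile factors). Abca1, which loads cholesterol onto apolipoproteins (ENSMUSG00000015243, GRCm38 chromosome 4, 53030787 to 53159895), had 113, 226 and 283 CPM in the control, 51.6, 58.3 and 34.1 CPM with pamidronate and 15.9, 17.8 and 32.8 CPM with pamidronate + GGOH. The controls spread widely and all lay above every treated library, and the change was -3.22 ± 0.46 (SE, adjusted p = 0.00125). Abcg1, a second sterol exporter, changed by -1.42 ± 0.30 (SE, adjusted p = 0.0055). Plin2, which coats lipid droplets (ENSMUSG00000028494, GRCm38 chromosome 4, 86648386 to 86670060), had 191, 227 and 229 CPM in the control and 1845, 1698 and 1207 CPM with pamidronate + GGOH. This was a rise of 2.88 ± 0.16 (SE, adjusted p = 6.44e-08), and pamidronate alone gave 1756, 1973 and 2287 CPM. Apoe, an apolipoprotein, rose by 1.66 ± 0.24 (SE, adjusted p = 7.13e-05) from a low level of 1.07 ± 0.21 CPM (SD, n = 3).

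Enzymes that make geranylgeranyl diphosphate and attach it to proteins were called about as often as all genes. Of 20 genes 3 rose (15%, against 26.3% over all genes) and 7 fell (35%, against 26%), with a median of -0.14. Upper-quartile factors gave 6 higher and 3 lower at a median of 0.06, while 1 rose without pamidronate + GGOH replicate 1. Ggps1, which makes geranylgeranyl diphosphate, had 22, 21.4 and 19.5 CPM in the control and 23.7, 24.6 and 22.9 CPM with pamidronate + GGOH. The groups did not overlap, yet the change of 0.18 ± 0.10 (SE, adjusted p = 0.135) passed only with upper-quartile factors (adjusted p = 0.00547) and with a stricter filter on low counts among the alternatives run. Zmpste24, a protease that trims prenylated proteins, and Pcyox1, which breaks down prenylcysteines, changed by -0.77 ± 0.12 (SE, adjusted p = 0.000146) and -0.73 ± 0.11 (SE, adjusted p = 8.95e-05). Rabggtb, a subunit of the Rab prenyltransferase, rose by 0.55 ± 0.13 (SE, adjusted p = 0.00266).

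Small GTPases that carry the geranylgeranyl group, and their relatives, moved in both directions. Rac1, which drives membrane ruffling, had 448, 473 and 466 CPM in the control, 187, 215 and 175 CPM with pamidronate and 221, 231 and 283 CPM with pamidronate + GGOH, a change of -0.92 ± 0.11 (SE, adjusted p = 1.45e-05) against the control. All treated libraries lay under all controls. Cdc42, which steers cell polarity, changed by -0.94 ± 0.11 (SE, adjusted p = 1.93e-05), Rac2 by -0.66 ± 0.10 (SE, adjusted p = 8.71e-05) and Rhoa, which drives contractility, by -0.70 ± 0.12 (SE, adjusted p = 0.000255). Rhoq, a relative of Cdc42, lay lower with both agents than with pamidronate alone, at 55.4, 57.6 and 60.2 against 77.4, 85.1 and 77.7 CPM, and at 149, 146 and 124 CPM in the control. In the other direction, Rhob had 14.7, 15.8 and 18.2 CPM in the control and 25.7, 25.4 and 25.4 CPM with pamidronate + GGOH, a rise of 0.65 ± 0.11 (SE, adjusted p = 0.000179). The pamidronate group was higher still, at 41.1, 41.4 and 36.9 CPM. Rhou and Rhov, atypical members that do not rely on geranylgeranylation, rose by 3.10 ± 0.43 (SE, adjusted p = 5.45e-05) and 1.64 ± 0.23 (SE, adjusted p = 6.44e-05). Rap1a, a geranylgeranylated GTPase of the Ras branch, went from 156, 159 and 153 to 72, 74.9 and 88.8 CPM, with 80.7, 92.1 and 76.4 CPM under pamidronate alone. It overlapped between the treated groups, with a difference of -0.08 ± 0.10 (SE, adjusted p = 0.521).

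Several proteins that switch these GTPases on and off, or act below them, also changed. Arhgap31, which inactivates Cdc42 and Rac1, had 51.2, 58.3 and 52.3 CPM in the control, 4.64, 3.98 and 2.73 CPM with pamidronate and 16.9, 20.8 and 29.7 CPM with pamidronate + GGOH. The level with both agents lay between the other groups with no overlap. Was, which links Cdc42 to actin, changed by -0.97 ± 0.14 (SE, adjusted p = 8.8e-05), Arhgef6 by -1.02 ± 0.13 (SE, adjusted p = 4.58e-05) and Pak1 by -0.84 ± 0.10 (SE, adjusted p = 2e-05). Dock10, an activator of Cdc42, rose by 1.09 ± 0.09 (SE, adjusted p = 9.09e-07).

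Heterotrimeric G proteins, whose gamma subunits carry prenyl groups, were called more often lower than higher. Of 24 subunits tested 6 rose (25%, near the 26.3% over all genes) and 12 fell (50%, against 26%), or 8 and 10 with upper-quartile factors. Gng2, a gamma subunit, had 87.8, 86.3 and 80.6 CPM in the control, 16.1, 13.2 and 14.1 CPM with pamidronate and 29.5, 30.8 and 38 CPM with pamidronate + GGOH. Every treated library lay under the controls, and the change was -1.37 ± 0.11 (SE, adjusted p = 6.88e-07). Gnai2, the inhibitory alpha subunit, changed by -0.85 ± 0.12 (SE, adjusted p = 5.88e-05), and Gnas, the stimulatory one, did not pass (-0.09 ± 0.10 SE, adjusted p = 0.446). Gng8 and Gng3, low in the control at 0.628 ± 0.185 and 0.848 ± 0.219 CPM (SD, n = 3 each), rose by 3.06 ± 0.30 (SE, adjusted p = 3.54e-06) and 2.58 ± 0.30 (SE, adjusted p = 1.55e-05). Both were higher still with pamidronate alone, at 14.6 ± 3.42 and 13.5 ± 1.02 CPM (SD, n = 3 each).

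Receptors that signal through G proteins and their regulators gave 6 higher (16.2%, against 26.3% over all genes) and 17 lower (46%, against 26%) of 37. Rgs1, which shortens signals of chemokine receptors (ENSMUSG00000026358, GRCm38 chromosome 1, 144242296 to 144249242), had 23.6, 20.5 and 24.8 CPM in the control and 849, 995 and 843 CPM with pamidronate. With pamidronate + GGOH it had 734, 654 and 302 CPM, replicate 3 being the lowest, and the rise over the control was 4.62 ± 0.34 (SE, adjusted p = 2.76e-05). P2ry6, a receptor for UDP, went from 328, 321 and 289 to 72.9, 103 and 147 CPM, with 15.8, 14.2 and 9.79 CPM under pamidronate alone. Cx3cr1, the fractalkine receptor, changed by -2.39 ± 0.41 (SE, adjusted p = 0.00273). Ccr1, a receptor for inflammatory chemokines, was higher with both agents than in either other group, at 12.8, 16.1 and 15.5 CPM against 0.701, 3.25 and 4.39 CPM in the control and 1.1, 1.83 and 1.86 CPM with pamidronate. Its change against the control was 2.42 ± 0.45 (SE, adjusted p = 0.00175).

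Genes that define macrophages were mostly below the control. Of 25 tested genes 19 fell (76%, against 26% over all genes) and 1 rose (4%, against 26.3%). The median was -1.22 (the same counts with upper-quartile factors, median -1.02). With pamidronate alone 23 fell and 0 rose, with a median of -2.63. Csf1r encodes the receptor for the macrophage growth factor M-CSF. It had 1357, 1400.5 and 1416 CPM in the control, 120.1, 99.9 and 75.4 CPM with pamidronate and 296, 361 and 614 CPM with pamidronate + GGOH. The last group lay apart from both others, with a change of -1.71 ± 0.27 (SE, adjusted p = 0.000909) against the control and 2.11 ± 0.28 (SE, adjusted p = 0.000314) against pamidronate. Spi1, the transcription factor PU.1, which sets the myeloid programme, changed by -0.79 ± 0.12 (SE, adjusted p = 0.000145), from 344 ± 8.42 to 199 ± 39 CPM (SD, n = 3 each). The 1 member that rose was Clec4n, the receptor Dectin-2, with 11.7, 18 and 16.7 CPM against 3.5, 4.37 and 4.14 CPM in the control and 3.48, 3.29 and 1.8 CPM with pamidronate.

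Genes of osteoclast formation and bone resorption did not move one way: 9 of 24 rose and 9 fell (37.5% each, against 26.3% and 26% over all genes). Tnfrsf11a, which encodes RANK, the RANKL receptor, had 141, 138 and 110.4 CPM in the control and 70.4, 70.3 and 88.8 CPM with pamidronate + GGOH, a change of -0.76 ± 0.11 (SE, adjusted p = 9.83e-05). Nfatc1, the transcription factor that RANKL induces, changed by -0.72 ± 0.08 (SE, adjusted p = 1.53e-05). Among the effectors, Ctsk, the collagen-cutting protease cathepsin K, had 3.74, 3.81 and 6.55 CPM in the control, 32.8, 36 and 29.9 CPM with pamidronate and 11.8, 12.4 and 8.1 CPM with both agents. It lay above the control by 1.20 ± 0.22 (SE, adjusted p = 0.000619). Acp5, tartrate-resistant acid phosphatase, had 2.95, 3.43 and 3.89 CPM against 7.07, 5.6 and 3.15 CPM and did not pass (-0.62 ± 0.26 SE, adjusted p = 0.0544), though it did under 5 alternatives, leaving out pamidronate + GGOH replicate 3 among them. Ctsk and Acp5 were thus at low levels in the controls, which are read here as given RANKL, and so was Itgb3, described below. Levels differed widely within the list, and whether the controls held osteoclast-like cells was not tested. Car2, its most abundant gene, averaged 986.5 CPM in the control. Of the 30 genes of the list, 23 averaged at least 1 CPM over the control and pamidronate + GGOH libraries. Itgb3, the integrin chain of the resorbing osteoclast, rose by 2.93 ± 0.21 (SE, adjusted p = 3.2e-07), from 1.53 ± 0.435 to 11.7 ± 1.54 CPM (SD, n = 3 each). Mmp9, a gelatinase, had 61.8, 68.3 and 130.2 CPM with pamidronate + GGOH, 17.6, 32.4 and 31.3 CPM in the control and 17.2, 21.4 and 14.5 CPM with pamidronate alone. It was thus highest with both agents, by 1.68 ± 0.36 (SE, adjusted p = 0.00715) over the control and 2.30 ± 0.38 (SE, adjusted p = 0.00204) over pamidronate. Dcstamp, needed for cell fusion, was higher by 0.95 ± 0.28 (SE, adjusted p = 0.0116), which did not pass without control replicate 3.

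**Figure D4:**
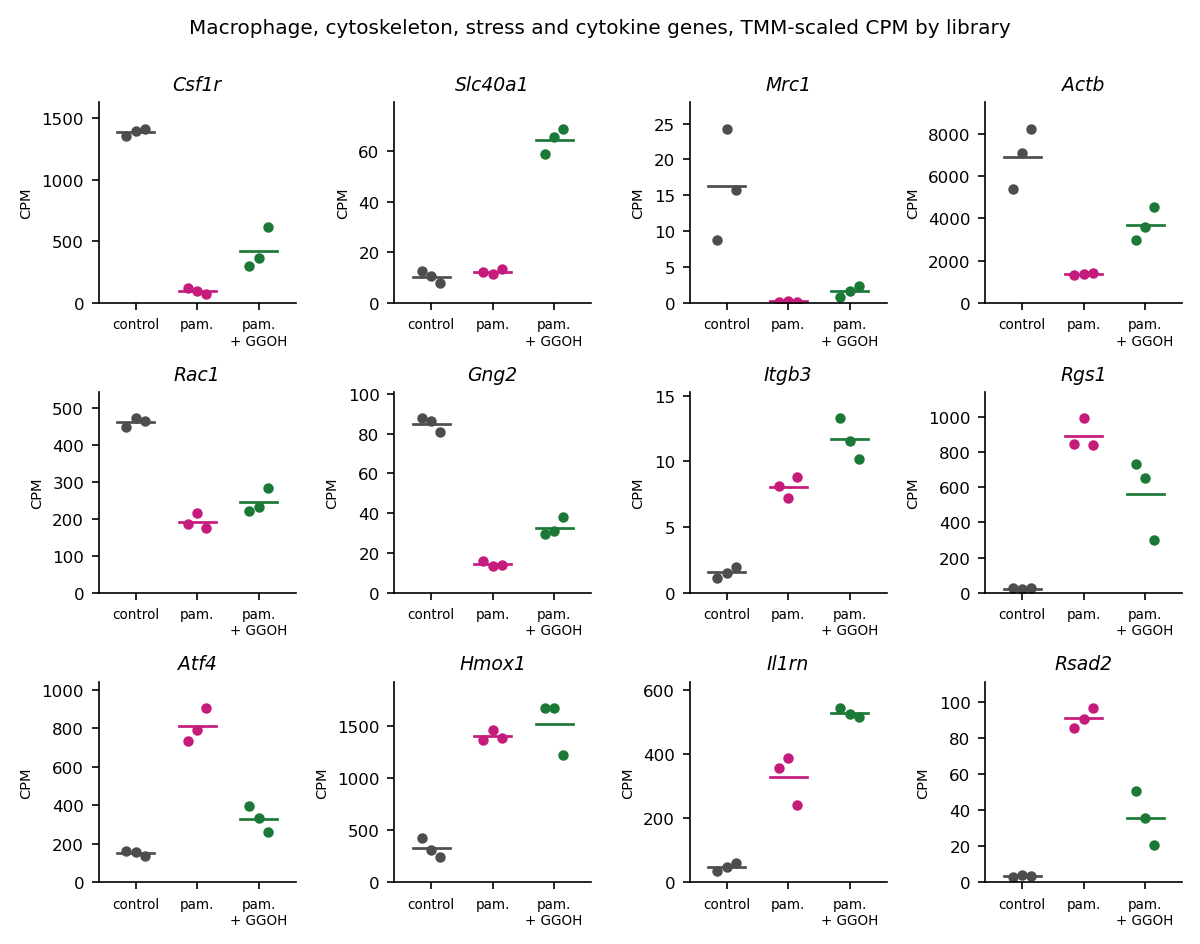
CPM in each library (vertical axis from 0, 1 point per library, horizontal line at the group mean) for 12 genes in control, pamidronate (pam.) and pamidronate + GGOH samples. Csf1r, Mrc1, Actb and Gng2 lie between the other groups when GGOH is added, Atf4 and Rsad2 also do, and for Hmox1 the treated groups overlap.

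Adhesion and cytoskeletal genes remained mostly lower. In the podosome and integrin list 25 of 36 fell (69.4%, against 26% over all genes) and 6 rose (16.7%, against 26.3%). The median was -0.55, and 2 rose without pamidronate + GGOH replicate 1. In the actin list 14 of 22 fell (63.6%) and 2 rose (9.09%), with a median of -0.46. Actb, cytoplasmic actin, had 5381, 7094 and 8244 CPM in the control, 1335, 1372 and 1429.7 CPM with pamidronate and 2972, 3579 and 4523 CPM with pamidronate + GGOH. No treated library reached the lowest control, and the change was -0.90 ± 0.17 (SE, adjusted p = 0.000537). Tmsb4x, which binds actin monomers, went from 1075 ± 144 to 316 ± 76.2 CPM (SD, n = 3 each), a change of -1.77 ± 0.16 (SE, adjusted p = 5.75e-06). Gsn, gelsolin, which cuts actin filaments, changed by -1.37 ± 0.12 (SE, adjusted p = 1.63e-06), and Itgal, the alpha chain of the integrin LFA-1, by -1.69 ± 0.25 (SE, adjusted p = 0.00028). Lysosomal genes gave 18 lower (48.6%, against 26% over all genes) and 6 higher (16.2%, against 26.3%) of 37. Their median of -0.19 turned to 0.01 with upper-quartile factors (15 and 11). Ctss, cathepsin S, changed by -1.12 ± 0.13 (SE, adjusted p = 1.52e-05), whereas Gla, alpha-galactosidase, rose by 0.81 ± 0.13 (SE, adjusted p = 0.000165).

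More cytokine genes rose than fell with pamidronate + GGOH. Of 32 tested 16 rose (50%, against 26.3% over all genes) and 9 fell (28.1%, near the 26%). The median was 0.66 (17 and 5 with upper-quartile factors). With pamidronate alone 18 rose and 9 fell. Il1rn, the antagonist of the interleukin-1 receptor (ENSMUSG00000026981, GRCm38 chromosome 2, 24336853 to 24351494), had 35, 46.6 and 59.7 CPM in the control, 357, 387 and 241 CPM with pamidronate and 544, 526 and 516 CPM with pamidronate + GGOH. Both treated groups lay far above the control, and the change was 3.49 ± 0.22 (SE, adjusted p = 3.41e-06). Cxcl2, which attracts neutrophils, went from 6.33 ± 1.19 to 37.2 ± 4.94 CPM (SD, n = 3 each), a rise of 2.55 ± 0.16 (SE, adjusted p = 1.18e-07), and Ccl5 rose by 2.64 ± 0.33 (SE, adjusted p = 2.26e-05). Tnf rose by 0.38 ± 0.12 (SE, adjusted p = 0.017), with libraries that overlapped the control, and the call was lost without pamidronate + GGOH replicate 3, without control replicate 1 and without control replicate 2. Nlrp3, the sensor of an inflammasome, had 60.9, 66.3 and 67.3 CPM in the control, 6.29, 4.68 and 3.96 CPM with pamidronate and 34.2, 37.3 and 50.7 CPM with both agents. Its change with both agents was -0.67 ± 0.15 (SE, adjusted p = 0.00232) against the control, and it lay above pamidronate alone by 3.03 ± 0.18 (SE, adjusted p = 1.1e-07). Il1b stayed under 1 CPM in each of the 9 libraries, and its call (1.74 ± 0.57 SE, adjusted p = 0.0196) was lost without control replicate 2 and without pamidronate + GGOH replicate 1.

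More interferon-responsive genes rose than fell. Of 33 tested 15 rose (45.5%, against 26.3% over all genes) and 3 fell (9.09%, against 26%). The median was 0.32 (20 and 3 with upper-quartile factors), and the number that fell was 6 without pamidronate + GGOH replicate 3. The promoters of Isg15, Ifit1 and Rsad2, which rose, are shown with matches to the core of the interferon-stimulated response element, searched as GAAANNGAA on both strands and given in capitals, matches overlapping where runs are longer than 9 bases. Of the 29 genes of the list with a window 13 held a match, against 8.18% of 27025 genes, and 5 of the 10 tested genes with a match rose, as did 5 of the 16 tested genes without one. The windows are chr4:156200819-156201068 on the minus strand, chr19:34640639-34640888 on the plus strand and chr12:26456453-26456702 on the minus strand (GRCm38.p6, RefSeq).
Isg15: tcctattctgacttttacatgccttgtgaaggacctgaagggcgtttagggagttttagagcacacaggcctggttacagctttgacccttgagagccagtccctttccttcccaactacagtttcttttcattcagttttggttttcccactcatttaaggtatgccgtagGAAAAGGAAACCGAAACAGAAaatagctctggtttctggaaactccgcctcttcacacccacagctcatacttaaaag
Ifit1: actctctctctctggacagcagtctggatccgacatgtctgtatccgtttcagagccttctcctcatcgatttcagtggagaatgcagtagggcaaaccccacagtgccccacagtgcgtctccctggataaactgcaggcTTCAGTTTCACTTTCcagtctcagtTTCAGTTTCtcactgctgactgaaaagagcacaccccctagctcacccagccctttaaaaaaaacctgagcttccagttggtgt
Rsad2: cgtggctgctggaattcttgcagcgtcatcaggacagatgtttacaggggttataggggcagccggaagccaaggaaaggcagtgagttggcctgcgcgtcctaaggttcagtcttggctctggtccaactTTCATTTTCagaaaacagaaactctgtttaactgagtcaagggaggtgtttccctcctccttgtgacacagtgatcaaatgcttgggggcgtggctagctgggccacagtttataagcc
Isg15, a ubiquitin-like modifier, had 0.701, 1.46 and 1.11 CPM in the control and 2.33, 2.49 and 3.1 CPM with pamidronate + GGOH. Ifit1, which binds foreign RNA, had 0.701, 1.12 and 1.73 CPM in the control, 17.9, 17.6 and 22.5 CPM with pamidronate and 6.64, 5.73 and 3.21 CPM with both agents. It lay between the other groups, as did Rsad2, the antiviral enzyme viperin (ENSMUSG00000020641, GRCm38 chromosome 12, 26442753 to 26456452), at 3.15, 4.09 and 3.77 CPM, 85.4, 90.3 and 96.6 CPM and 50.5, 35.4 and 20.8 CPM in the same order. The rises over the control were 1.27 ± 0.29 (SE, adjusted p = 0.00201) for Isg15, 2.13 ± 0.32 (SE, adjusted p = 0.000171) for Ifit1 and 3.27 ± 0.33 (SE, adjusted p = 0.000102) for Rsad2. Another set was higher with both agents than with pamidronate alone. Oasl2, of the oligoadenylate synthetase family, had 10.1, 14 and 23.8 CPM with pamidronate + GGOH, 6.05, 3.48 and 2.85 CPM with pamidronate and 2.1, 2.41 and 2.84 CPM in the control. Irf7, a transcription factor of the interferon response, had 32.8, 41.2 and 59.1 CPM, 25.2, 26.4 and 23 CPM and 8.76, 8.01 and 7.67 CPM in that order. Replicate 3 was the highest treated library for Oasl2 and Irf7 and the lowest for Ifit1 and Rsad2.

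In the integrated stress response list, named for the programme led by the transcription factor ATF4, 10 of 32 rose (31.2%, near the 26.3% over all genes) and 4 fell (12.5%, against 26%), with a median of 0.06 (14 and 1 with upper-quartile factors), and the number that fell was 9 without pamidronate + GGOH replicate 3 and 1 without replicate 2. Atf4 itself (ENSMUSG00000042406, GRCm38 chromosome 15, 80255184 to 80257540) had 162, 156 and 138 CPM in the control, 735, 788 and 905 CPM with pamidronate and 395, 336 and 261 CPM with pamidronate + GGOH, a rise of 1.12 ± 0.14 (SE, adjusted p = 2.32e-05) over the control. The groups did not overlap. Ddit3, the death-linked factor CHOP, rose by 1.82 ± 0.20 (SE, adjusted p = 6.22e-05) and Atf3 by 1.42 ± 0.13 (SE, adjusted p = 2.05e-06). Slc7a11, the cystine importer, was highest with both agents, at 154, 165 and 164 CPM against 84, 88.9 and 81.7 CPM with pamidronate and 57.8, 51.3 and 53.7 CPM in the control. Asns, a target of ATF4 that makes asparagine, did not pass, with a log2 change of -0.06.

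Of 25 p53 targets, 6 rose (24%, near the 26.3% over all genes) and 10 fell (40%, against 26%). With pamidronate alone 13 rose (52%, against 36.2% over all genes) and 6 fell (24%, against 32.9%). Cdkn1a, the cell cycle inhibitor p21, had 218, 255 and 208 CPM in the control, 507, 555 and 424 CPM with pamidronate and 203, 197 and 229 CPM with pamidronate + GGOH. The last group overlapped the control, with a difference of -0.11 ± 0.11 (SE, adjusted p = 0.414). Gdf15, a stress-induced cytokine, stayed above the control by 2.00 ± 0.14 (SE, adjusted p = 2.48e-07), at 14.5 ± 2.41 CPM (SD, n = 3), and differed from pamidronate alone by -2.20 ± 0.12 (SE, adjusted p = 3.27e-08). Plk2, a kinase of the polo family, rose by 3.77 ± 0.17 (SE, adjusted p = 5.1e-08), from 22.9 ± 3.3 to 313 ± 60.04 CPM (SD, n = 3 each). Among apoptosis regulators 4 of 32 rose (12.5%, against 26.3% over all genes) and 10 fell (31.2%, near the 26%). Upper-quartile factors gave 8 and 8, and 2 were higher without control replicate 2. Bmf, a BH3-only activator of apoptosis, went from 87.8, 69.6 and 59.2 to 19.2, 16.9 and 21.2 CPM, a change of -1.92 ± 0.16 (SE, adjusted p = 2.99e-06), while Bcl2l11, the activator Bim, overlapped the control (-0.14 ± 0.10 SE, adjusted p = 0.247). Autophagy genes gave 7 higher and 8 lower of 29 (24.1 and 27.6%, near the 26.3 and 26% over all genes), with 11 and 5 with upper-quartile factors, and 18 and 5 with pamidronate alone.

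Antioxidant genes under NRF2 control gave 6 higher (23.1%, near the 26.3% over all genes) and 10 lower (38.5%, against 26%) of 26. Upper-quartile factors gave 8 and 6, and 11 were higher without control replicate 1. Hmox1, heme oxygenase, had 425, 311 and 246 CPM in the control, 1365, 1459 and 1383 CPM with pamidronate and 1672, 1675 and 1223 CPM with pamidronate + GGOH. The treated groups overlapped, with a difference of 0.12 ± 0.18 (SE, adjusted p = 0.601), and the rise over the control was 2.22 ± 0.18 (SE, adjusted p = 3.12e-06). Sqstm1, the autophagy receptor p62 and also a member of this list, rose by 1.31 ± 0.13 (SE, adjusted p = 4.69e-06), and Nfe2l2, which encodes NRF2, changed by -0.87 ± 0.11 (SE, adjusted p = 2.93e-05). Plasma membrane transporters gave 7 higher (29.2%, near the 26.3%) and 11 lower (45.8%, against 26%) of 24, or 8 and 6 with upper-quartile factors. Slc40a1, the iron exporter ferroportin (ENSMUSG00000025993, GRCm38 chromosome 1, 45908068 to 45926523), had 12.7, 10.5 and 7.67 CPM in the control, 12.3, 11.5 and 13.3 CPM with pamidronate and 58.6, 65.3 and 68.8 CPM with pamidronate + GGOH. The last group lay above both others, by 2.64 ± 0.15 (SE, adjusted p = 5.85e-08) over the control and 2.38 ± 0.15 (SE, adjusted p = 6.35e-08) over pamidronate, whose own difference from the control was 0.26 ± 0.15 (SE, adjusted p = 0.141). Slc2a1, the glucose transporter GLUT1, rose by 1.45 ± 0.12 (SE, adjusted p = 1.2e-06). The glycolysis and hypoxia list held 11 higher (35.5%, against 26.3%) and 8 lower (25.8%, near the 26%) of 31. Ndrg1, a gene raised by hypoxia, rose by 1.70 ± 0.23 (SE, adjusted p = 0.000229), and Aldoc, an aldolase of the same list, changed by -1.63 ± 0.16 (SE, adjusted p = 1.22e-05).

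Respiratory chain genes were lower. All 12 mitochondrially encoded genes tested fell, against 26% over all genes, with a median of -1.09 (11 with upper-quartile factors). The gene for subunit 4 of complex I, mt-Nd4, had 8569, 7352 and 7062 CPM in the control and 2361, 2868 and 3011 CPM with pamidronate + GGOH, with 1298, 1395 and 2184 CPM under pamidronate alone. Its change was -1.48 ± 0.18 (SE, adjusted p = 2.8e-05). Of 41 nuclear genes of oxidative phosphorylation 31 fell (75.6%, against 26% over all genes) and 0 rose (against 26.3%). The median was -0.41 (18 and 1 with upper-quartile factors). Sdha, a subunit of complex II, had 145, 156 and 145 CPM in the control and 56.5, 67.3 and 78.1 CPM with pamidronate + GGOH and changed by -1.14 ± 0.12 (SE, adjusted p = 6.51e-06). Cytosolic ribosomal proteins gave 17 lower (31.5%, near the 26% over all genes) and 0 higher (against 26.3%) of 54. Upper-quartile factors gave 2 and 1, with a median of -0.01 against -0.22. The number lower was 43 without control replicate 3 and 5 without pamidronate + GGOH replicate 2.

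Proliferation genes were lower on average with a wide spread among the controls. In the DNA replication list 20 of 40 fell (50%, against 26% over all genes) and 0 rose, with a median of -0.67 (12 fell with upper-quartile factors). In the mitosis list 11 of 44 fell (25%, near the 26% over all genes) and 0 rose, with a median of -1.06. Mki67, the proliferation marker Ki-67, had 109, 366 and 542 CPM in the control, 103, 129 and 105 CPM with pamidronate and 69, 127 and 225 CPM with pamidronate + GGOH. Control replicate 1 lay inside the range of the treated libraries and the change of -1.27 ± 0.65 (SE, adjusted p = 0.15) did not pass. Mki67 did pass without control replicate 1. Without that library 36 replication and 42 mitosis genes were lower, and without pamidronate + GGOH replicate 2 the numbers were 7 and 4, so these counts rest on single libraries. Ccnd1, cyclin D1, which admits cells to the cycle, had 329, 385 and 361 CPM in the control, 79.9, 83 and 68.3 CPM with pamidronate and 200.3, 226 and 317 CPM with both agents. Its change against the control was -0.53 ± 0.15 (SE, adjusted p = 0.00882), and that of pamidronate alone -2.22 ± 0.15 (SE, adjusted p = 7.91e-08).

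**Figure D5:**
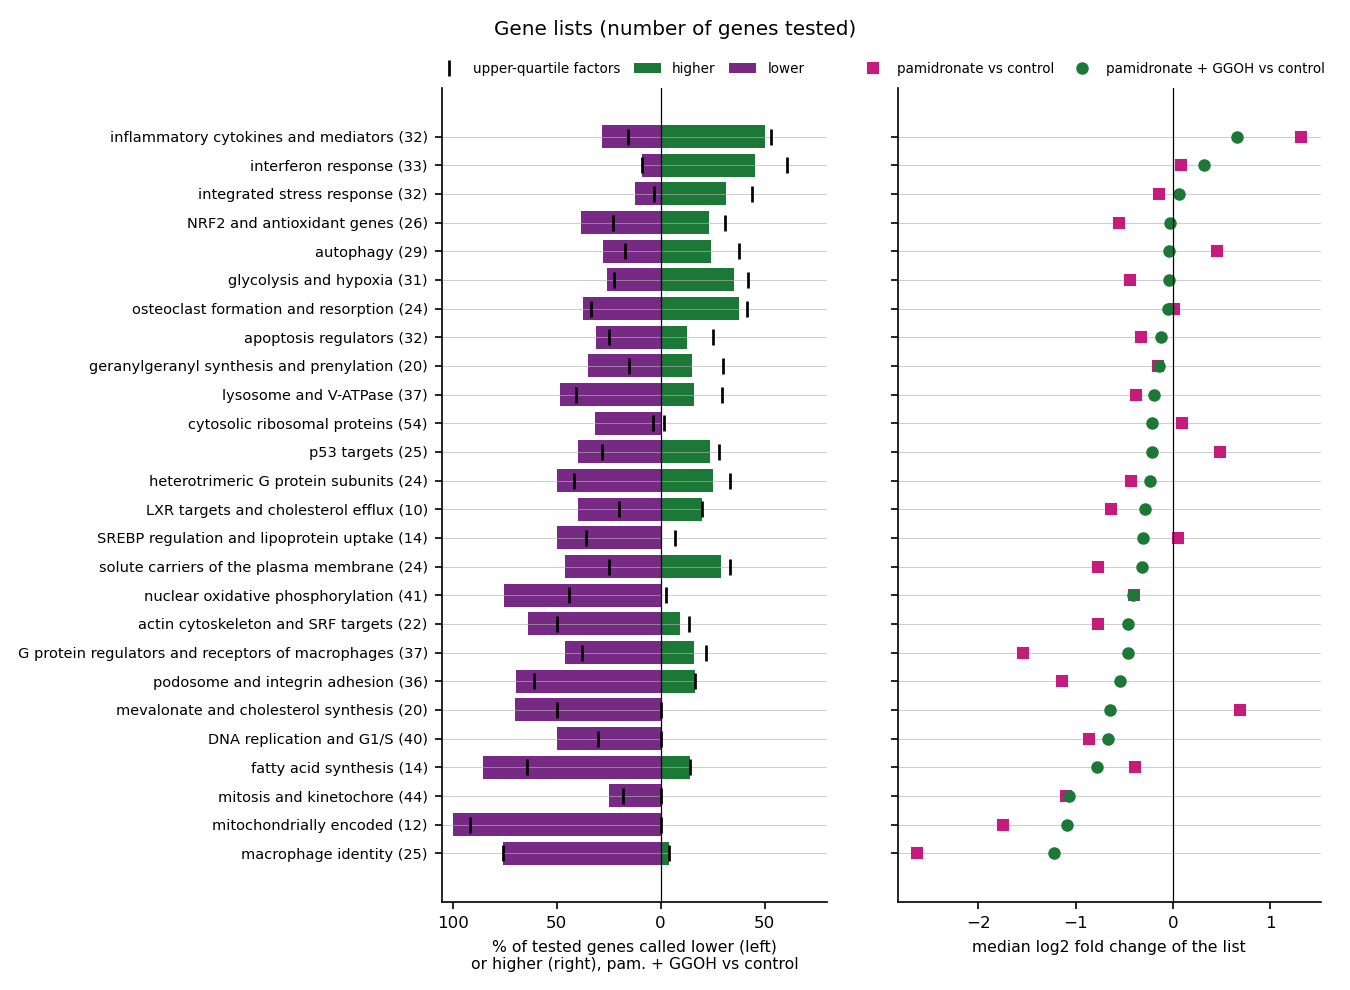
Left, the percent of tested genes of each list shown called lower (purple, to the left) or higher (green, to the right) with pamidronate + GGOH against the control, with black ticks for upper-quartile factors. Right, the median log2 fold change of each list for pamidronate + GGOH (circles) and pamidronate (squares) against the same control libraries, where the mevalonate and cholesterol list stands at -0.65 and 0.69.

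Markers of other cell types differed in level. Of 10 T cell markers 1, Lck, reached 1 CPM, with Trbc1 and Trbc2 at 0, and none of 9 neutrophil or 8 epithelial markers did. Summed B cell markers were 176.9 to 209 CPM in the control and 54.7 to 108 CPM with pamidronate + GGOH, led by Ighm at 133.5 and 49.6 CPM on average, and dendritic cell markers 65.9 to 76.8 and 23.6 to 26.1 CPM, led by Cd83 at 65.1 and 17.8 CPM. These B cell and dendritic cell sums were lower with pamidronate + GGOH and did not overlap between the groups. They rested on few genes, as 3 of 8 B cell and 2 of 8 dendritic cell markers averaged at least 1 CPM. Of 4 B cell markers tested 2 were called lower and 1, Cr2, higher, a call lost in 9 of 17 alternative fits. Of 4 dendritic cell markers tested 2 were lower and 0 higher. Whether such cells were present was not tested. Fibroblast and osteoblast markers summed to 32.3 to 44.6 and 30.1 to 32.7 CPM, led by Runx2. The part of these lists in the other results was not tested. Strandedness of the counting is not given in the sources used here, so Csf1r, Rac1, Rhoa, Ccnd1, Ddit3, Ggps1, Irf7, Cx3cr1, Slc2a1, Srebf1, Gng3, Ndrg1, Sqstm1, Rhoq and Tmem176a, which overlap a gene on the other strand, may include its reads.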

How the data were processed

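The deposited table gives raw counts per gene for 9 libraries from total RNA depleted of ribosomal RNA, made by the authors. The authors also deposited TPM values, which entered no test. Per the submitters' processing notes, reads were trimmed with Trimmomatic 0.36, the build was GRCm38 and DESeq was used in a role that is not stated. Neither the aligner, the counter nor the strandedness was given in the sources used here. Library totals ran from 14356069 to 18957968 counts, and no 2 libraries of a group agreed within counting error.

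Here, genes were kept with filterByExpr at its defaults (15963 of 49315), scaled with TMM factors and fitted in 1 model of 3 group means over all 9 libraries with edgeR 4.0.16 (quasi-likelihood, robust; R 4.3.3), with Benjamini-Hochberg adjustment over all genes tested. A gene was called at an adjusted p under 0.05. CPM are counts scaled with TMM factors. SE was taken as log2 fold change divided by the root of the F statistic. Library measures were compared by an exact permutation test. The test was checked on simulated counts with few changed genes and the same spread for all genes. These data differ in both, so the check does not cover the dependence on scaling.

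The comparison, the 28 gene lists, 6 marker lists and named genes were chosen with earlier results of these data known. Named genes are the 12 highest and 12 lowest called genes whose higher group averaged 5 CPM or more, without overlap (predicted, clone-named and pseudogenes left out), up to 5 called genes per list with the largest change, and a fixed set; Me1, Acacb, Clec4n, Asns and Isg15 were added after their values were seen. Not all genes the rule took are named, and some genes and lists are not reported here. Alternatives were RLE and upper-quartile factors, library sizes without mitochondrial and abundant noncoding RNA, no filter, a stricter filter (minimum count 50), DESeq2 1.42.0, limma-voom (limma 3.58.1), the replicate number as a block, only the 2 groups compared, a threshold of 0.01, a 2-fold minimum, and leaving out each library.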

Additional observations from a re-analysis of the deposited data

How the results depend on the processing

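With a minimum of 2-fold, 3079 genes were called, 2432 higher and 647 lower. The minimum lowers the number by construction, and the cause of the uneven split was not tested. Upper-quartile factors, which move the median of all genes from 0.02 to 0.23 on the log2 scale, left 2600 lower. The difference in genes detected, 5904 in favour of pamidronate + GGOH, was 2632 when a gene needed at least 5 counts. Leaving out 1 library at a time gave 6923 to 8932 calls, 3484 to 4468 higher and 3427 to 4464 lower, against 8359, 4202 and 4157. The difference in the mitochondrial share stayed between -4.73 and -4.29 percentage points and that in genes detected between 5416 and 6842. With the replicate number as a block 8275 genes were called, 4081 higher and 4194 lower. Same-numbered control and pamidronate + GGOH libraries had correlations of their deviations from the group means of 0.185, -0.0404 and 0.127. Differently numbered ones had -0.201 to 0.104, so 0.185 and 0.127 lay above all of these. The numbers were not taken as pairs in the main fit, and whether they mark pairs was not tested. DESeq2 called 8143, limma-voom 8292, RLE factors 8415, no filter 9147, the stricter filter 6429 and the 2 groups alone 7279. Of the called genes, 2 changed sign with upper-quartile factors and 0 in each other alternative in which they could be tested; no named gene was among the 2. The mitosis list gave 26 lower genes with the replicate block, 20 with DESeq2 and 4 with the 2 groups alone, against 11. The replication list gave 30, 25 and 12 in that order, against 20, and the cause was not tested. Depth limits the genes with few counts in a group, such as those at or under 3 counts in the control, and a 0 allows up to 3.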

Other observations

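Some genes outside the named sets, chosen here after their values were seen, stood out. Tfrc, the transferrin receptor that imports iron, had 70.6 ± 33 CPM in the control, 116 ± 7.87 CPM with pamidronate and 219 ± 19.1 CPM with pamidronate + GGOH (SD, n = 3 each), a log2 change of 1.63 ± 0.31 (SE, adjusted p = 0.00336) against the control. It was highest in the same group as the iron exporter Slc40a1. Mmp12, macrophage elastase, had 1.42 ± 0.526, 1.76 ± 0.306 and 13.1 ± 4.96 CPM in that order of groups. Soat2, an enzyme that esterifies cholesterol, had 3.5 ± 0.866, 3.11 ± 0.258 and 17 ± 1.54 CPM. For Mmp12 and Soat2, as for Mmp9 and Ccr1, the level with both agents was above both other groups.

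Genes with very low control levels reached substantial ones in both treated groups. Pgf, placental growth factor, had 1.1 ± 0.514 CPM in the control, 199.5 ± 9.73 CPM with pamidronate and 131 ± 57 CPM with pamidronate + GGOH. Hilpda, a lipid droplet protein that hypoxia induces, had 5.71 ± 0.379, 162 ± 22.8 and 138 ± 43.9 CPM in the same order. Toll-like receptors Tlr2 and Tlr8 were lower than the control in both: Tlr2 had 165 ± 6.21, 12.2 ± 1.84 and 44.3 ± 15.1 CPM, and Tlr8 had 72.5 ± 4.99, 1.11 ± 0.466 and 19.6 ± 8.77 CPM.

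The predicted genes Gm10800, Gm26870, Gm21738 and Gm10801, left out of the named genes as predicted, were higher, but each of these calls was lost in 10 of 18 alternative fits, among them leaving out control replicate 2 or 3 or pamidronate + GGOH replicate 1 or 2. Gm10800 had 154 ± 188 CPM in the control, 652 ± 264 CPM with pamidronate and 1239 ± 635 CPM with pamidronate + GGOH, a log2 change of 3.01 ± 1.02 (SE, adjusted p = 0.0472). The others differed by 2.99 ± 0.95, 2.95 ± 0.92 and 2.72 ± 0.90 for Gm26870, Gm21738 and Gm10801 (adjusted p = 0.0376, 0.036 and 0.0434). How reads that fit several places were counted is not given in the sources used here.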
